A study of Mus musculus with 8 samples.

Results

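Messenger RNA of 10 apolipoprotein genes was followed in the livers of 8 C57BL/6 mice. The genes were taken by name (*Apoa1*, *Apoa2*, *Apoa4*, *Apoa5*, *Apob*, *Apoc1*, *Apoc2*, *Apoc3*, *Apoe* and *Apom*), and all 10 were found among the 14506 genes listed for these livers. Of the mice, 4 were *Rragc* +/+ and 4 were *Rragc* S74N/+. The S74N allele is a knock-in in which serine at position 74 of RagC is replaced by asparagine, together with silent changes, and it is carried on 1 allele in every cell of the animal. RagC is 1 of the Rag GTPases that bring the growth kinase complex mTORC1 to the lysosome when nutrients are present, and the substitution holds RagC in its GDP-like, active state. All livers were taken as whole tissue from young mice. In *Rragc* +/+, replicates 1 to 3 were 3 months old and replicate 4 was 2.5 months old. In *Rragc* S74N/+, replicates 1 and 2 were 3 months old, replicate 3 was 2.5 months old and replicate 4 was 2 months old. Replicate numbers only name a liver, and wherever 4 values of a genotype are listed they stand in the order of replicates 1 to 4. Sex and feeding before collection are not given for these livers in the sources used here, and no treatment is named for them.

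Apolipoproteins are the protein part of the particles that carry fat and cholesterol through blood. *Apob* is the large scaffold of very low density lipoprotein (VLDL), which the liver secretes, and *Apoa1* and *Apoa2* build high density lipoprotein (HDL). The small exchangeable proteins move between particles and set how fast fat is released from them: *Apoc2* is the cofactor of lipoprotein lipase, *Apoc3* and *Apoc1* slow lipolysis and uptake, *Apoa5* helps lipolysis, and *Apoe* is the ligand by which remnant particles are taken up by liver receptors. Hepatocytes make all of these. *Apob*, *Apoa1*, *Apoa4* and *Apoc3* are also made by the intestine, and *Apoe* is also made by macrophages.

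In the GRCm38 build with GENCODE M21, 7 of the 10 genes lie in 2 clusters. On chromosome 9, within 43.34 kb, lie *Apoa1* (46228580 to 46230466, forward strand), *Apoc3* (46232933 to 46235636, reverse), *Apoa4* (46240696 to 46243459, forward) and *Apoa5* (46268633 to 46271919, forward). On chromosome 7, within 27.61 kb and all on the reverse strand, lie *Apoc2* (19671579 to 19677941), *Apoc1* (19689481 to 19692660) and *Apoe* (19696109 to 19699188). *Apoa2* stands alone on chromosome 1 (171225054 to 171226379, forward), *Apob* on chromosome 12 (7977648 to 8016835, forward) and *Apom* on chromosome 17 (35128997 to 35132050, reverse). All 10 are annotated as protein coding. Reads of *Apoc2* are uncertain: 646 of its exonic bases (79.5%) are shared with *Gm44805*, a read-through gene on the same strand that joins *Apoc2* and *Apoc4*, and of the 270 exonic bases within the last 500 bases of *Apoc2* the overlap covers 265. *Gm44805* was not among the listed genes. Antisense genes overlap *Apoa4* (*Gm47528* and *Gm10680*) and *Apoa5* (*Gm47544*), but reads were counted by strand.

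**Figure D1:**
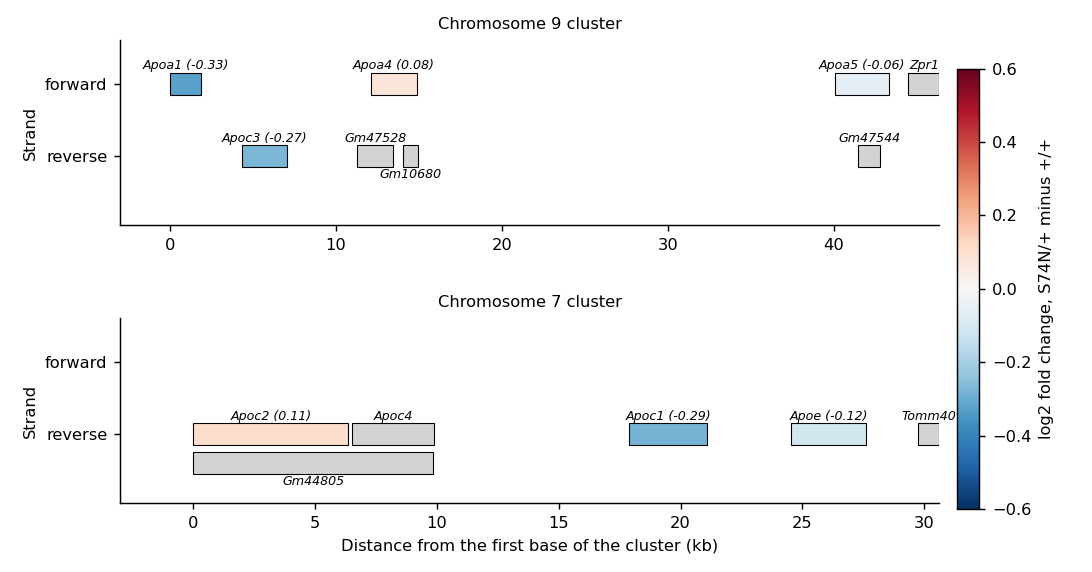
Map of the 2 apolipoprotein clusters, with distance in kb from the first base of the first member on the x axis and strand on the y axis. Members are coloured by their log2 fold change between genotypes, which is printed beside the name, and other annotated genes are grey. On chromosome 9, *Apoa1* (-0.33) and *Apoc3* (-0.27) lie next to *Apoa4* (0.08), and on chromosome 7 *Apoc1* (-0.29) and *Apoe* (-0.12) lie to the right of *Apoc2* (0.11), none of them past the test.

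The RefSeq table of promoters (GRCm38.p6) held 8 of the 10 genes, without *Apoc1* and *Apoc3*. For 3 of them the 120 bases before the annotated start are shown 5′ to 3′, because *Apob* had the largest difference between genotypes of the 10, and *Apoa2* and *Apoa5* were the pair whose levels were most alike over the livers although they lie on different chromosomes. Capitals mark a TATA box (TATAAA) and the E box CACGTG, the core of the element that *Tfeb* and *Tfe3* bind, which are transcription factors held in the cytoplasm by active Rag GTPases. The window ends at the GENCODE start, which for *Apob* lies 29 bases before the RefSeq start.
*Apob*, chr12:7977528-7977647, forward strand: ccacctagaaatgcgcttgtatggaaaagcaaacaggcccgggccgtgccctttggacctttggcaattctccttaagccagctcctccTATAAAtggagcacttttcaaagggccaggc
*Apoa5*, chr9:46268513-46268632, forward strand: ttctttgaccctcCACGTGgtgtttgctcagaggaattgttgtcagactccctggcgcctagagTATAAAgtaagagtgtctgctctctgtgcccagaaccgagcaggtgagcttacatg
*Apoa2*, chr1:171224934-171225053, forward strand: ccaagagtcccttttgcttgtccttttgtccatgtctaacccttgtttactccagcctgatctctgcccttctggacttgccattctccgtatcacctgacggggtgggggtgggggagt

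Over the 250 bases before the RefSeq start, on both strands, TATAAA was found in *Apob* (60 to 55 bases before it), *Apoa5* (56 to 51) and *Apoa2* (212 to 207), which places the match of *Apoa2* upstream of the bases shown. TATAAA is present in 12.4% of the 32851 promoters of the table. CACGTG was found in *Apoa5* alone of the 8 members (107 to 102 bases before the start) and is present in 6.02% of all promoters. The longer palindrome TCACGTGA, which contains CACGTG and is held by 0.785% of promoters, was in no member, nor was CAAAGTCCA (0.384%), CAAAGGTCA (0.426%) or TGACGTCA (1.55%). CCAAT, present in 33.8% of promoters, was in *Apoa2* alone (164 to 160 bases before the start). These are matches of letters in a window and not measured binding.

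The 10 genes together took between 5.93% and 7.71% of the reads of a liver. Their share was 7.71%, 6.88%, 6.85% and 6.93% in the *Rragc* +/+ livers, and 5.93%, 6.93%, 7.50% and 5.93% in the *Rragc* S74N/+ livers. The mean was 7.09% ± 0.412 (SD, n = 4) against 6.57% ± 0.776 (SD, n = 4), and the groups overlapped. Reads in listed genes numbered from 4313076 to 6632108 per liver, and 375 to 237754 of them stood behind each member's value, so the counting error of single values was between 0.205% and 5.16% of the value. No pair of libraries agreed within sampling noise, with a chi-square per degree of freedom of 14.6 or more. *Rragc* itself had means of 84.1 ± 20.4 and 76.6 ± 7.32 (SD, n = 4 each) in the 2 genotypes (*Rragc* +/+ first), and its count cannot check a substitution.

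The libraries were read from the 3′ ends of messenger RNA, so a share of reads stands for a share of transcripts and was not divided by length. On this scale the levels of the 10 genes spanned from 0.0130% of reads for *Apoa4* to 3.37% for *Apoe*, as means over the 8 livers. *Apoe* ranked 3 among all genes, *Apoa1* (1.29%) ranked 10, *Apoa2* (0.960%) ranked 12, *Apoc1* (0.622%) ranked 19 and *Apoc3* (0.287%) ranked 34. *Apob* (0.133%) ranked 72, *Apoa5* (0.0647%) ranked 147, *Apom* (0.0604%) ranked 166, *Apoc2* (0.0374%) ranked 299 and *Apoa4* ranked 888. Ranges over livers overlapped for neighbours in this order in the case of *Apoa1* (0.933% to 1.51%) and *Apoa2* (0.642% to 1.14%), of *Apoa2* and *Apoc1* (0.548% to 0.765%), of *Apob* (0.0731% to 0.202%) and *Apoa5* (0.0491% to 0.0791%), and of *Apoa5*, *Apom* (0.0324% to 0.0783%) and *Apoc2* (0.0298% to 0.0488%). The range of *Apoe* (3.09% to 3.75%) lay above that of every other member, and the ranges of *Apoc1* and *Apoc3* (0.235% to 0.334%) did not meet. The highest liver of *Apoa4* (0.0292%) lay just under the lowest liver of *Apoc2*.

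**Figure D2:**
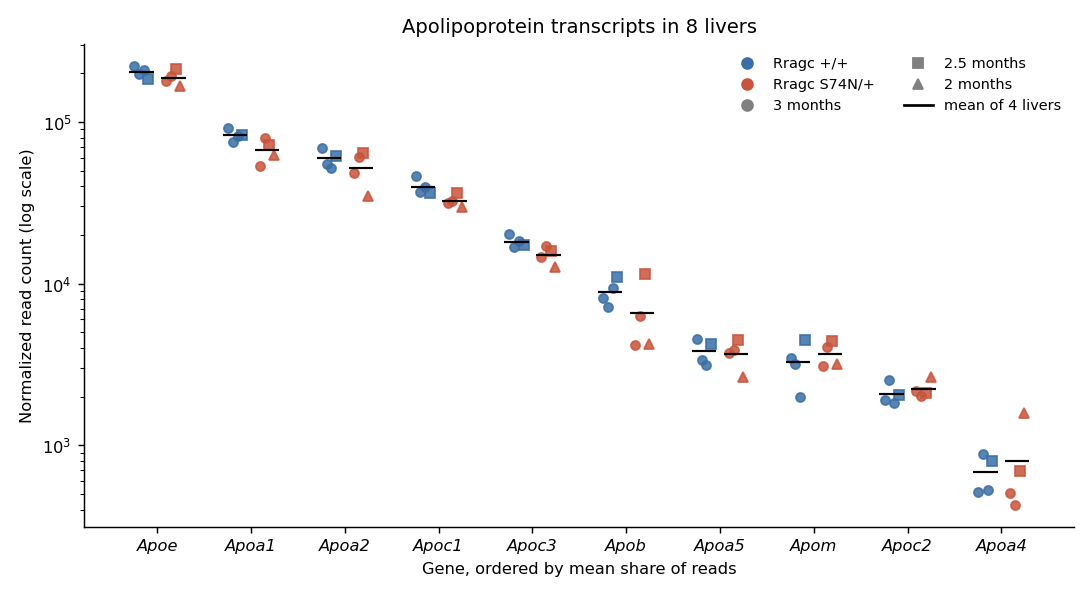
Normalized read count of each apolipoprotein gene (y axis, log scale) in each liver, for genes ordered by their mean share of reads (x axis). Points are livers, coloured by genotype and shaped by age, and bars are means of 4 livers. The levels ran from 428.4 for the lowest *Apoa4* liver to 221636 for the highest *Apoe* liver, and the 2 genotypes overlapped for all 10 genes.

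No apolipoprotein gene passed the test between genotypes. Of the 10 members, 0 had an adjusted p under 0.05 in limma with Benjamini-Hochberg adjustment over the 11174 genes tested, against 0.00895% of all genes (1 gene, *Gpx3*). At an unadjusted p under 0.05, 0 members were lower and 0 were higher in *Rragc* S74N/+, against 2.80% and 2.37% of all genes. In 0 members did the 4 livers of each genotype keep apart, against 2.94% of all genes. The mean was lower in *Rragc* S74N/+ for 7 of the 10 genes, with a median log2 fold change of -0.17, against 0.01 and 48.7% lower over all genes tested. That count was 6 when values were scaled to the total of listed genes and 10 when they were scaled to hepatocyte markers, which shifts the median of all genes to -0.27 and that of the members to -0.45. The count was 7 again without the 2-month-old liver and 9 without *Rragc* +/+ replicate 3, the liver with the fewest reads. These are levels in bulk tissue, in which fewer cells of a type and less RNA per cell cannot be told apart.

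Among the structural proteins of the particles, *Apob*, the scaffold of VLDL, had the largest difference of the 10 genes and was also among the most variable. Its normalized read count was 8123, 7184, 9360 and 10963 in the *Rragc* +/+ livers, and 4186, 6338, 11417 and 4207 in the *Rragc* S74N/+ livers. In *Rragc* S74N/+, 3 of 4 livers lay below every *Rragc* +/+ liver and the remaining one, replicate 3, was the highest of all 8. Next to it came *Rragc* +/+ replicate 4, and these were the 2 livers of 2.5 months. The means were 8908 ± 1634 (SD, n = 4) and 6537 ± 3406 (SD, n = 4), and the log2 fold change of -0.56 (95% confidence interval -1.21 to 0.10) did not pass (limma adjusted p = 0.846, exact permutation p = 0.200). Leaving out that highest liver gave -0.87 (limma adjusted p = 0.253), and leaving out *Rragc* S74N/+ replicate 1 gave -0.39.

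*Apoa1*, the main protein of HDL and the activator of cholesterol esterification by *Lcat*, was counted at 91895, 75283, 82231 and 82918 in the *Rragc* +/+ livers, and at 53450, 79109, 72410 and 62047 in the *Rragc* S74N/+ livers. All *Rragc* S74N/+ livers but replicate 2 were below the lowest *Rragc* +/+ liver, and the means were 83082 ± 6813 and 66754 ± 11310 (SD, n = 4 each). The log2 fold change was -0.33 (SE 0.246, limma adjusted p = 0.846), with an exact permutation p of 0.0571, where 0.0286 is the smallest that 4 against 4 livers allow. *Apoa2*, the second protein of HDL, was counted at 69139, 54563, 52132 and 61681 in the *Rragc* +/+ livers and at 48579, 60901, 64169 and 34729 in the *Rragc* S74N/+ livers. Its genotypes overlapped, with *Rragc* S74N/+ replicates 1 and 4 below every *Rragc* +/+ liver and replicate 4, the 2-month-old mouse, the lowest of all. The log2 fold change of *Apoa2* was -0.22 (SE 0.265), and it moved to -0.04 without that liver and to -0.05 with age as a factor. *Apom*, which carries sphingosine 1-phosphate on HDL, gave 3490, 3191, 1979 and 4462 in the *Rragc* +/+ livers and 3077, 4025, 4433 and 3195 in the *Rragc* S74N/+ livers. Its lowest and highest livers were both *Rragc* +/+, so that the *Rragc* S74N/+ values lay wholly inside the *Rragc* +/+ range. The log2 fold change of 0.21 (SE 0.251, limma adjusted p = 0.872) turned to -0.01 without *Rragc* +/+ replicate 3 and to -0.08 when scaled to hepatocyte markers.

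Of the proteins that slow lipolysis and uptake, *Apoc3* was counted at 20273, 16796, 18458 and 17204 in the *Rragc* +/+ livers, and at 14647, 17155, 15889 and 12698 in the *Rragc* S74N/+ livers. *Apoc1* was counted at 46425, 36784, 39280 and 36311 in the *Rragc* +/+ livers and at 31651, 32271, 36466 and 29639 in the *Rragc* S74N/+ livers. For both genes 3 of 4 *Rragc* S74N/+ livers were below the lowest *Rragc* +/+ liver, and the exception was replicate 2 for *Apoc3* and replicate 3 for *Apoc1*. The log2 fold change of *Apoc3* was -0.27 (SE 0.202), and that of *Apoc1* was -0.29 (SE 0.217). Neither passed (limma adjusted p = 0.846 for both, exact permutation p = 0.0571 for both). For the members other than *Apob*, *Apoa1*, *Apoc3* and *Apoc1*, the exact permutation p ran from 0.257 (*Apoe*) to 0.971 (*Apoa4*). The exact permutation p-values of single members were not adjusted. In limma the spread of these abundant genes is drawn toward that of genes of like level, which made the standard error 1.82 times that from the livers themselves for *Apoc3* and 2.12 times for *Apoc1*. For *Apob* (0.83 times), *Apoa4* (0.77) and *Apom* (0.91) it was smaller than that from the livers themselves.

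*Apoe*, the ligand for remnant uptake, was the most even of the 10 genes. It was counted at 221636, 197076, 209290 and 183140 in the *Rragc* +/+ livers, and at 177912, 192004, 212454 and 167368 in the *Rragc* S74N/+ livers, a 1.32-fold range over all livers. The genotypes were mixed, and the log2 fold change was -0.12 (limma adjusted p = 0.933). It ran from -0.06 without *Rragc* S74N/+ replicate 4 to -0.18 without replicate 3 of that genotype, and from -0.04 with total scaling to -0.40 when scaled to hepatocyte markers. Its SE of 0.271 in limma was 2.85 times the one computed from these 8 livers alone.

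Of the proteins that promote lipolysis, *Apoc2* was counted at 1900, 2548, 1816 and 2043 in the *Rragc* +/+ livers and at 2181, 2027, 2101 and 2641 in the *Rragc* S74N/+ livers. *Apoa5* was counted at 4541, 3350, 3130 and 4237 in the *Rragc* +/+ livers and at 3710, 3887, 4479 and 2659 in the *Rragc* S74N/+ livers. Both genes overlapped between genotypes. The 2-month-old *Rragc* S74N/+ liver was the highest of all for *Apoc2* and the lowest of all for *Apoa5*. The log2 fold change was 0.11 for *Apoc2* (95% confidence interval -0.30 to 0.52), which turned to -0.17 when scaled to hepatocyte markers. For *Apoa5* it was -0.06 (95% confidence interval -0.53 to 0.41), which turned to 0.02 when scaled to the total of listed genes. Neither passed (limma adjusted p = 0.902 and 0.960).

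*Apoa4*, a protein of newly made fat particles and HDL, had the lowest level and the largest spread. It was counted at 513.6, 883.8, 530.5 and 800.7 in the *Rragc* +/+ livers, and at 509.6, 428.4, 690.9 and 1579 in the *Rragc* S74N/+ livers. The highest value by far was again that of the 2-month-old mouse. The log2 fold change of 0.08 (SE 0.356, limma adjusted p = 0.967) changed sign, to -0.32, without this liver, to -0.30 with age as a covariate and to -0.41 among 3-month-old mice alone. It also turned without *Rragc* +/+ replicate 1 (-0.05) and without *Rragc* +/+ replicate 3 (-0.03), both 3 months old. Age and genotype cannot be told apart for the 2-month-old liver, since it was the only one of its age.

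**Figure D3:**
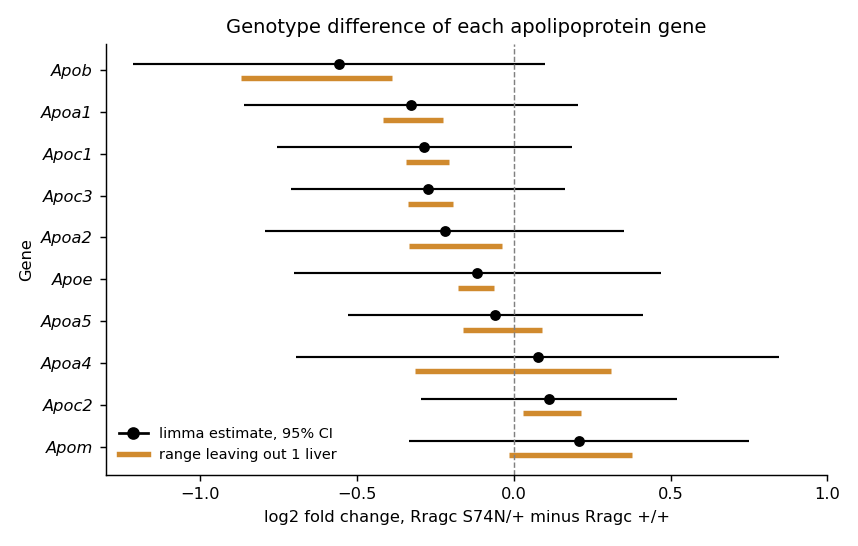
Log2 fold change of each apolipoprotein gene between *Rragc* S74N/+ and *Rragc* +/+ livers (x axis), with genes on the y axis. Points and black lines are the limma estimate and its 95% confidence interval, and orange bars span the estimates obtained when each liver was left out in turn. Every black line crosses 0, from *Apob* at -0.56 to *Apom* at 0.21, and the orange bars of *Apoa5*, *Apoa4* and *Apom* cross 0 as well.

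The spread over the 8 livers, as an SD of log2 values, was 0.607 for *Apoa4*, 0.564 for *Apob* and 0.379 for *Apom*, and between 0.139 (*Apoe*) and 0.313 (*Apoa2*) for the other 7 genes. Single livers stood at the edge of the range for several genes at once. *Rragc* +/+ replicate 1 was the highest liver for 6 of the 10 genes (*Apoa1*, *Apoa2*, *Apoa5*, *Apoc1*, *Apoc3* and *Apoe*). *Rragc* S74N/+ replicate 4 was the lowest for 5 (*Apoa2*, *Apoa5*, *Apoc1*, *Apoc3* and *Apoe*) and the highest for *Apoa4* and *Apoc2*, and it stood 0.66 below the mean of 8 livers for *Apoa2* and 1.21 above it for *Apoa4* on the log2 scale. For *Apob*, *Rragc* S74N/+ replicates 1 and 4 both stood at -0.79, and replicate 3 of that genotype at 0.66.

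**Figure D4:**
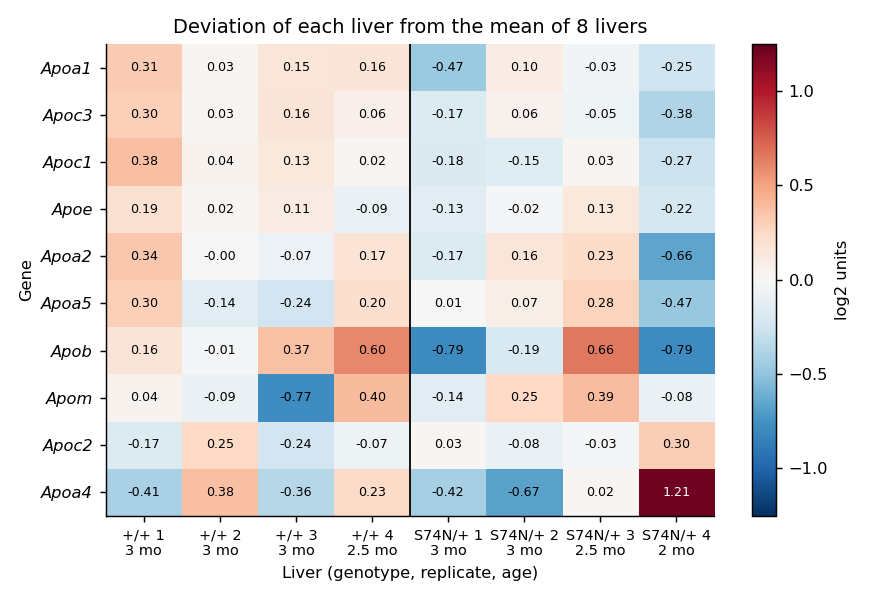
Deviation of each liver (columns, with genotype, replicate and age in months) from the mean of the 8 livers for each apolipoprotein gene (rows), in log2 units on the normalized read count plus 1. Red is above and blue below the mean, and the black line divides the genotypes. The 2-month-old *Rragc* S74N/+ liver was at 1.21 for *Apoa4* and at 0.30 for *Apoc2* while it was below the mean for the other 8 genes.

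Levels of the 10 genes were then compared with each other over the 8 livers, which gave 45 pairs. All genes of a liver share its library and its scaling. The median Pearson r was 0.423, with 28 positive pairs. The most alike were *Apoa2* and *Apoa5*, with r = 0.907 and Spearman rho = 0.929 (exact permutation p = 0.00223 for both, adjusted over the 45 pairs 0.0774 and 0.0502). Their r was 0.749 without the 2 livers farthest from the median of *Apoa2*, 0.938 with the genotype means removed and 0.817 without the 2-month-old liver. For each pair the 2 farthest livers were picked by the values of the first named gene alone. The next highest r was that of *Apoc1* and *Apoc3*, on chromosomes 7 and 9 (r = 0.883, rho = 0.81). Their exact permutation p was 0.00516 and 0.0218, adjusted 0.0774 and 0.196, and r was 0.668 without the 2 farthest livers. *Apoc1* and *Apoe*, neighbours on chromosome 7, had r = 0.871 and rho = 0.905 (exact permutation p = 0.00466 and 0.00456, adjusted 0.0774 and 0.0685), with r = 0.690 without the 2 farthest livers. *Apoa1* and *Apoc3*, neighbours on chromosome 9 on opposite strands, had r = 0.859 and rho = 0.952 (exact permutation p = 0.00694 and 0.00114, adjusted 0.0781 and 0.0502), with r = 0.944 without the 2 farthest. At the other end, *Apoc2* and *Apoc3* had r = -0.762 and rho = -0.881 (exact permutation p = 0.0268 and 0.00724, adjusted 0.120 and 0.0815), with r = -0.872 without the 2 farthest. No pair had an adjusted Pearson p under 0.05. *Apoa4* and *Apoc2* had r = 0.795 (exact permutation p = 0.0165, adjusted 0.106) and rho = 0.595 (exact permutation p = 0.132, adjusted 0.284), and the relation rested on the 2 farthest livers, since r was 0.204 without them. The largest set of livers of the same age held 5, under the 6 set here as the minimum for a correlation, so none was computed within an age.

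Sharing a cluster did not go with a higher median r. The 9 pairs on the same chromosome had a median r of -0.29, and the 36 other pairs had 0.543. The negative pairs were those of *Apoa4* and *Apoc2* with the members of their cluster: *Apoa4* with *Apoa1* (-0.29), *Apoa5* (-0.58) and *Apoc3* (-0.66), and *Apoc2* with *Apoc1* (-0.61) and *Apoe* (-0.64). Without the 2-month-old liver the same-chromosome median was 0.07 and that of the other pairs 0.364. These values describe 8 livers and were not tested between the 2 kinds of pair.

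A ratio of 2 genes within a liver does not depend on the scaling of that liver. Of the 45 ratios, 1 kept the genotypes apart, which is the ratio of *Apoc1* to *Apoe*, close neighbours on chromosome 7. *Apoc1* reads were 20.9%, 18.7%, 18.8% and 19.8% of *Apoe* reads in the *Rragc* +/+ livers, and 17.8%, 16.8%, 17.2% and 17.7% in the *Rragc* S74N/+ livers. The means were 19.5% ± 1.07 and 17.4% ± 0.466 (SD, n = 4 each), a log2 difference of -0.17. The exact permutation p was 0.0286, the smallest the design allows, and 0.536 after adjustment over the 45 ratios, so the difference did not hold against the number of ratios examined. *Apoe* and *Apoc1* are also made by Kupffer cells, the macrophages of the liver. The summed level of 12 Kupffer cell markers overlapped between genotypes (3183 to 4891 in *Rragc* +/+, 3170 to 5177 in *Rragc* S74N/+). None passed after adjustment, and at an unadjusted p under 0.05 *Marco*, *C1qc* and *Adgre1* were higher and *Cd163* was lower. *Marco*, a scavenger receptor, had a mean of 22.2 in *Rragc* +/+ against 88.9 in *Rragc* S74N/+, and *Csf1r*, the most abundant, of 1176 against 911. Their part in the ratio was not tested.

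For the 3 most variable members, the genes whose levels were most like theirs over the 8 livers were looked up among the 11164 other tested genes. For *Apoa4* they included *Gpt*, which moves amino groups between alanine and glutamate (r = 0.943, rho = 0.952), and *Kdm5d*, a histone demethylase gene of the Y chromosome (r = 0.942, rho = 0.976). Without the 2 livers farthest from the *Apoa4* median r was 0.813 and 0.976. *Kdm5d* was counted in every liver, at 36.4 to 86.5, so the livers did not divide into those with and without it. For *Apob* they were *Tbx3os1*, a transcript opposite to *Tbx3* (r = 0.990, rho = 1), *Ncbp3*, a cap-binding protein (r = 0.988, rho = 0.952), and *Arhgef12*, a nucleotide exchange factor (r = 0.987, rho = 0.976). All 3 kept the shape of *Apob*, and *Arhgef12* for example was counted at 738.2, 1029, 1420 and 746.4 in the *Rragc* S74N/+ livers. For *Apom* they were *Mthfsd* (r = 0.974, rho = 0.929), *Crebzf*, a leucine zipper protein (r = 0.957, rho = 0.833), and *Rps13*, a ribosomal protein (r = 0.955, rho = 0.905) whose processed copies make its reads uncertain. They are the highest of many correlations over 8 livers, and carry no p for that reason.

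The other genes of lipoprotein biology were described from the same test, by lists of names. None of the 12 genes tested from a list of other apolipoproteins passed, with 6 higher, 6 lower and a median log2 fold change of 0.01. The list went by name and also held *Apol7a*, *Apol9a*, *Apol9b* and *Apold1*. Its median is therefore not that of proteins of lipoprotein particles alone. The most abundant was *Apoc4*, which adjoins *Apoc2*, at 16207 ± 2954 against 13425 ± 2966 (SD, n = 4 each) and a log2 fold change of -0.28. *Saa4*, an apolipoprotein of HDL made by the liver at all times, had -0.43, and *Clu* (apolipoprotein J) had -0.28. *Apon* was counted at 2087, 1865, 1566 and 1727 in the *Rragc* +/+ livers and 1515, 1541, 1472 and 1543 in the *Rragc* S74N/+ livers. Its genotypes did not overlap, though the nearest values were 1543 and 1566. In limma the log2 fold change was -0.25 with adjusted p = 0.846.

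For VLDL assembly, 0 of 16 genes passed, with 10 higher and 6 lower and a median of 0.07. *Mttp*, which loads lipid onto *Apob*, was counted at 518.3, 515.3, 471.1 and 543.7 in the *Rragc* +/+ livers and 413.2, 384.8, 586.2 and 265.1 in the *Rragc* S74N/+ livers. As for *Apob*, the highest *Rragc* S74N/+ liver was replicate 3, but the log2 fold change of -0.37 (SE 0.235) did not pass. *Tm6sf2*, which aids lipidation of VLDL, had 0.55, and *Aadac*, a lipase of the secretory pathway, had 0.53. For editing of *Apob* messenger RNA, which makes the shorter Apob48, 0 of 5 genes passed. *Rbm47*, a cofactor of the editing enzyme, had the smallest p of these, with 539.2 ± 125 against 810.8 ± 340 (SD, n = 4 each) and a log2 fold change of 0.52, followed by *Syncrip* (0.17) and *Khsrp* (0.10).

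For HDL formation and remodelling, 0 of 13 genes passed, with a median of 0.12. *Lcat*, the enzyme that *Apoa1* activates, gave 1647 ± 426 against 1260 ± 56.5 (SD, n = 4 each) and a log2 fold change of -0.34. *Pltp*, which transfers phospholipid, had -0.57, and *Bmp1*, a protease that matures *Apoa1*, had -0.26. For receptors and uptake, 0 of 14 genes passed, with a median of 0.12. *Sort1*, a sorting receptor that binds *Apob*, had -0.68, and *Lsr*, a receptor for remnants, had 0.39.

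In the control of lipases 0 of 10 genes passed after adjustment, with 1 higher and 1 lower at an unadjusted p under 0.05 and a median of -0.24. *Angptl8*, an inhibitor of lipoprotein lipase that rises on feeding, was counted at 360.8, 340.4, 390.4 and 313.0 in the *Rragc* +/+ livers and 42.2, 221.3, 323.2 and 202.3 in the *Rragc* S74N/+ livers. Its log2 fold change was -1.15 (SE 0.475, limma adjusted p = 0.846). *Lpl*, lipoprotein lipase itself, was counted at 234.9, 160.9, 294.2 and 312.0 in the *Rragc* +/+ livers and 270.8, 478.1, 292.0 and 810.9 in the *Rragc* S74N/+ livers, and its log2 fold change was 0.78 (SE 0.338, adjusted p = 0.846 in limma). *Lmf2*, a factor of the family that matures lipases, had -0.41.

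A list of transcription factors held 25 tested genes, with a median of 0.05. After adjustment 0 passed, and 1 was lower at an unadjusted p under 0.05. The one was *Tfeb*, a factor of lysosomal and lipid genes that Rag GTPases keep out of the nucleus, at 88.6, 44.9, 59.4 and 56.1 in the *Rragc* +/+ livers and 33.1, 43.5, 27.9 and 33.4 in the *Rragc* S74N/+ livers. Its genotypes did not overlap, and the log2 fold change was -0.81 (SE 0.299, limma adjusted p = 0.846). *Tfe3*, its relative, had -0.46 and *Foxa3*, a factor of liver genes, had -0.58. The list went by name and also held cofactors such as *Ppargc1a*. Whether *Tfeb*, *Tfe3* or the other listed genes act on apolipoprotein genes was not tested.

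**Figure D5:**
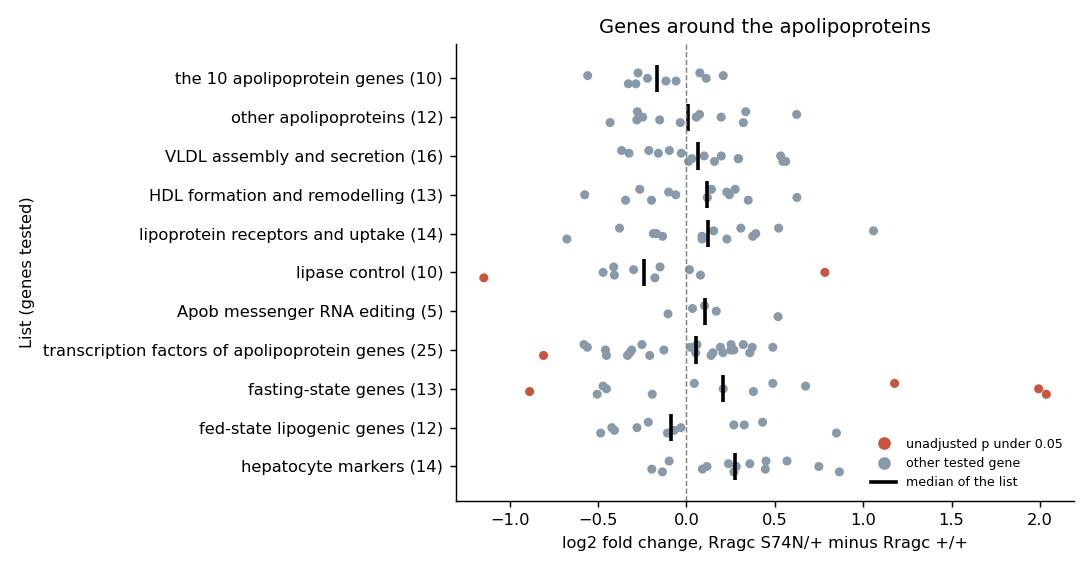
Log2 fold change between *Rragc* S74N/+ and *Rragc* +/+ livers (x axis) of the 10 apolipoprotein genes and of the tested genes of 10 lists around them (y axis, with the number tested). Each point is a gene, red where the unadjusted limma p is under 0.05, and black bars are medians. The members run from -0.56 to 0.21 with no red point, while the lists of lipase control, transcription factors and fasting-state genes hold red points, none of them past adjustment.

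Several genes of lipoprotein handling answer to feeding. Of 13 fasting-state genes none passed after adjustment, with 3 higher and 1 lower at an unadjusted p under 0.05 and a median of 0.21. *Igfbp1*, which is raised in fasting, was counted at 275.0, 234.7, 80.6 and 168.2 in the *Rragc* +/+ livers and 1191, 337.7, 278.6 and 2252 in the *Rragc* S74N/+ livers. Its log2 fold change was 2.04 (SE 0.586, adjusted p = 0.846 in limma). Every *Rragc* S74N/+ liver was above the *Rragc* +/+ livers, but replicate 3 only narrowly (278.6 against 275.0). Replicates 1 and 4 of *Rragc* S74N/+, the ones with the lowest *Apob*, were far above the rest. *Cyp4a14*, a fatty acid hydroxylase, had 1.99 and *Pck1*, of glucose production, had 1.18, while *Plin2*, which coats lipid droplets, had -0.89. Of 12 lipogenic genes of the fed state 0 passed, with a median of -0.09 (*Acss2* 0.85, *Fasn* -0.42, *Acly* 0.43), and of 11 clock output genes 0 passed, with a median of -0.12 (*Clock* -0.36, *Hlf* -0.54, *Nr1d2* 0.54). Within the clock list the 2 livers of 2.5 months, *Rragc* +/+ replicate 4 and *Rragc* S74N/+ replicate 3, stood apart for some genes. *Dbp* was counted at 57.9 and 125.9 in them and at 3.74 to 11.3 in the others. *Nr1d1* was at 734.3 and 845.8 against 154.2 to 389.7, and *Arntl* at 21.5 and 20.1 against 56.6 to 146. *Cry1* did not set them apart (100.9 and 101.4 against 88.1 to 135.6). These livers also had the highest *Apob*. The part of the feeding state or of clock genes in the apolipoprotein values was not tested.

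Hepatocyte markers were present in every liver, with a summed level of 279732 to 415739 in the *Rragc* +/+ livers and 323850 to 546369 in the *Rragc* S74N/+ livers. Of 14 tested 0 passed and 11 were higher in *Rragc* S74N/+, with a median of 0.28, *Alb*, the most abundant, at 0.75 and *Cps1* at 0.87, so that apolipoprotein and hepatocyte marker genes differed in the sign of their median. Of 12 intestinal markers, 2 were listed, *Fabp2* and *Lgals4*, which sum to 150 to 216 in the *Rragc* +/+ livers and 156 to 213 in the *Rragc* S74N/+ livers. The other 10, among them *Vil1*, *Sis* and *Cdx2*, were not listed. Of 12 kidney markers 5 were listed, with a sum of 87.7 to 183 in the *Rragc* +/+ livers and 23.7 to 58.8 in the *Rragc* S74N/+ livers. *Kap*, the only one of them with a mean of 10 or more, had a log2 fold change of -2.20 (adjusted p = 0.846 and unadjusted p = 0.00131 in limma). The *Kap* values of the genotypes did not overlap. *Slc12a1* and *Slc12a3* were at 0 in 4 livers each, and *Umod* and *Aqp2* were not listed. Of 10 pancreas markers only *Cela1* was listed, at 233 to 434 in the *Rragc* +/+ livers and 92.2 to 240 in the *Rragc* S74N/+ livers. Its log2 fold change was -0.94 (adjusted p = 0.846 and unadjusted p = 0.0103 in limma). Of 14 stellate and endothelial markers 0 passed after adjustment, with 3 higher (*Pecam1*, *Lyve1* and *Col1a1*) and 1 lower (*Ecm1*) at an unadjusted p under 0.05, a sum of 3532 to 3851 against 3008 to 3970, and -0.14 for the most abundant, *Dcn*. The part of other cells in the apolipoprotein values was not tested.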

How the data were processed

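The authors sequenced 3′ ends of polyadenylated RNA from whole livers (QuantSeq FWD kit, single reads), aligned them to GRCm38 with TopHat2 2.0.10, Bowtie 1.0.0 and SAMtools 0.1.19, and counted them by strand with HTSeq 0.6.1 on a GENCODE annotation. Tool versions are those of the submitters' processing notes. The deposited signal is a count per gene and liver normalized with DESeq size factors, for 14506 genes. All values (100%, tolerance 0.0001) were whole multiples of 1 step per liver, so whole reads were recovered. Reads in listed genes are not the full depth, and without molecular identifiers counting error is a lower limit.

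Groups came from the labels, in which each library is a separate liver sample (read here as 1 mouse), so p-values measure the spread between these samples. Here limma 3.58.1 (R 4.3.3, mean-variance trend) tested genotype alone on log2(normalized count + 1). It covered 11174 genes whose mean reached 10, with Benjamini-Hochberg adjustment over all of them at 0.05. Fold changes on that scale are slightly understated for low genes. Single values were tested by exact two-sided permutation over all 70 labellings. The script was checked on simulated counts.

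The 10 genes and all lists were chosen with earlier results of these data known. The text names genes past the threshold and in each list up to 3 with the smallest p (2 for marker lists, with the most abundant), the 3 genes most like each of the 3 most variable members, and neighbours of members. A few genes that this rule picks are not reported here. *Plin2*, *C1qc*, *Adgre1*, *Lyve1*, *Col1a1*, *Dbp*, *Nr1d1*, *Arntl* and *Cry1* were named after their values were seen. Other settings were pseudocounts of 0.1 and 5, dropping the filter or raising it to 50, TMM or total scaling, no trend, edgeR 4.0.16 and DESeq2 1.42.0 on recovered reads, a term for age, the 5 mice of 3 months, and leaving out each liver. Names were matched to GENCODE M21 (14458 of 14506), a release near the one the authors used.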

Additional observations from a re-analysis of the deposited data

Results flagged for a closer look

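The values of 24 groups of 4 livers (1 measure in 1 genotype each) were searched for a liver whose gap to the nearest other exceeded Dixon's critical share of the range, a limit that chance alone passes in about 1.2 of 24. The summed share of the 10 genes in *Rragc* +/+ replicate 1 was 7.71% of reads and stood apart from the other *Rragc* +/+ livers (6.85% to 6.93%). The read total of *Rragc* +/+ replicate 3 was 4313076 and stood apart from the other 3 (6177759 to 6509465). No single apolipoprotein gene had such a liver.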

How the results depend on the processing

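No apolipoprotein gene was called in any of the 21 other settings, in which the lowest adjusted p was 0.253 (*Apob* without *Rragc* S74N/+ replicate 3). *Apob*, *Apoa1*, *Apoa2*, *Apoc1*, *Apoc3* and *Apoe* kept a negative sign in all of them, but not their size. Hepatocyte marker scaling, which shifts the median of all genes to -0.27, gave -0.84 for *Apob*, -0.61 for *Apoa1*, -0.51 for *Apoa2*, -0.57 for *Apoc1*, -0.56 for *Apoc3* and -0.40 for *Apoe*. *Apob* had an unadjusted p under 0.05 in 3 settings: without that liver, among the 5 mice of 3 months and with age as a factor. The 5 mice of 3 months also leave that liver out, so these settings are not independent. Genes higher and lower at that limit numbered 892 and 790 of 11182 without that liver. They numbered 309 and 331 of 11147 among the mice of 3 months, and 320 and 312 of 11174 with age as a factor. The sign of *Apoa4* turned with a term for age in months (-0.30), among the 5 mice of 3 months (-0.41), with age as a factor (-0.35) and scaled to hepatocyte markers (-0.21), and that of *Apoa5* turned with total scaling (0.0183), the term for age (0.0010), the mice of 3 months (0.0671) and age as a factor (0.0709). Scaling to hepatocyte markers turned *Apoc2* (-0.17) and *Apom* (-0.0778). Leaving out 1 liver gave -0.32 to 0.31 for *Apoa4*, -0.16 to 0.0902 for *Apoa5* and -0.0147 to 0.38 for *Apom*. Age as a factor and hepatocyte marker scaling were chosen after seeing the data. The difference in the share of reads (-0.522 percentage points) was -0.896 without the 10 most abundant other genes and -0.83 to -0.307 when a liver was left out, and it was not computed under the other settings.

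Over all genes, 1 was called, against 0 without the trend, 0 with the term for age, 0 among the mice of 3 months, 10 with DESeq2, 3 with age as a factor and 0 to 2 when a liver was left out. The call was lost without any 1 of 7 livers, and 2 were made without *Rragc* S74N/+ replicate 3. At an unadjusted p under 0.05, 265 genes were higher and 313 lower, against 399 and 224 with total scaling, 65 and 574 with hepatocyte marker scaling, 892 and 790 without *Rragc* S74N/+ replicate 3, 302 and 301 without the trend, 191 and 224 with the term for age, and 309 and 331 among the mice of 3 months. No paired analysis was possible because the labels give no numbers that tie livers of the 2 genotypes together.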
